A study of Mus musculus with 2 samples.

Results

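The 10 genes described here encode receptors of the epidermal growth factor (EGF) family (Egfr, Erbb2 and Erbb3), the hepatocyte growth factor receptor Met, ligands of these receptors (Egf, Areg, Hbegf, Btc and Hgf) and Errfi1, an intracellular inhibitor of EGF receptors. They were taken by symbol from a deposited table of 23283 gene rows, and each symbol matched 1 row with a usable status. The table compares perfused livers of male C57Bl/6 mice aged 6 months. Both genotypes were labelled as Akt2-/- in the whole animal and as carrying floxed Akt1 alleles (Akt1F/F), so by their labels the control mice lacked Akt2 as well, although Akt2 transcripts were counted at 37.5 FPKM in control and 33.5 FPKM in Alb-Cre livers. The second genotype also carried Alb-Cre, in which Cre is expressed from the promoter of the albumin gene, active in hepatocytes and not in the blood vessel, immune or stellate cells of the liver. For each genotype mRNA from 4 livers was pooled, giving a control library and an Alb-Cre library. With 1 pooled library per genotype no difference has a replicate check, and no error between mice can be given for any value.

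EGF receptors are tyrosine kinases that pair up when a ligand binds and pass the signal to Ras, the MAP kinases, PI3 kinase and Akt. Erbb2 binds no ligand of its own and Erbb3 has a weak kinase, so both act as partners within pairs, and Erbb3 is a strong docking site for PI3 kinase. The ligands of the EGF receptors are made as membrane proteins and cut free by proteases, among them Adam17. In the liver, Egfr and Met are the main receptors through which hepatocytes receive growth signals after injury, and Hgf reaches Met from stellate and endothelial cells.

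Levels are the authors' FPKM values (fragments corrected for transcript length and library size), which allows levels of different genes to be set side by side. Errfi1, the inhibitor, had by far the highest level of the 10 genes, at 528 FPKM in control livers and 487 FPKM in Alb-Cre livers. Egfr came next, with 105 and 66.2 FPKM, followed by Erbb3 with 23.6 and 26.3 FPKM and Met with 21.3 and 20.0 FPKM. The ligands were far below their receptors. Hgf had 3.05 and 4.26 FPKM, Btc 1.23 and 3.07 FPKM, and Hbegf 0.466 and 3.82 FPKM. Erbb2 (0.231 and 0.389 FPKM), Egf (0.131 and 0.139 FPKM) and Areg (0.0316 and 0.107 FPKM) stayed below 1 FPKM in both libraries. The order of the 10 genes was the same in both libraries, except that Hbegf stood below Btc in the control library and above it in the Alb-Cre library.

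**Figure D1:**
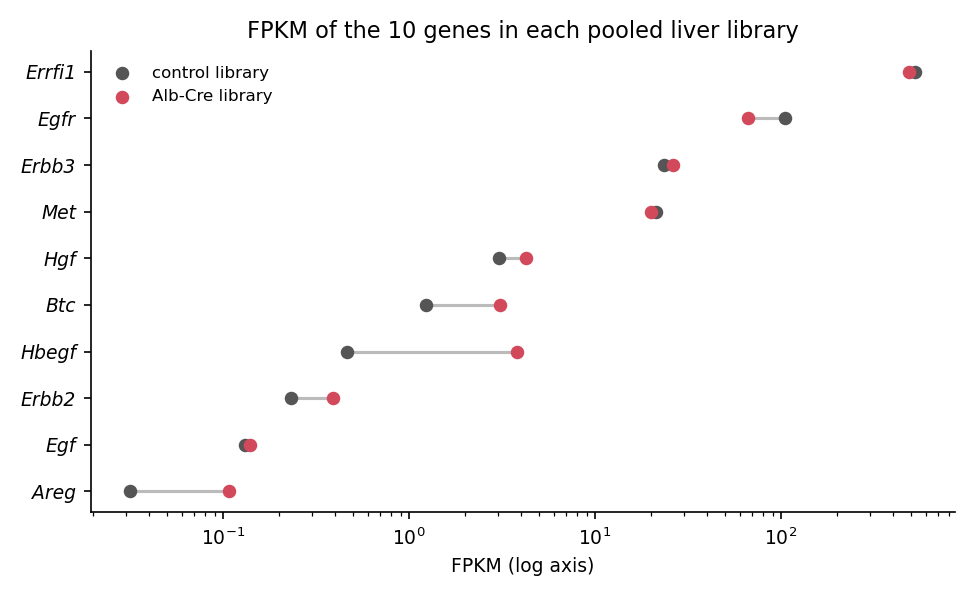
FPKM of each of the 10 genes (log axis) in the control library (grey) and the Alb-Cre library (red), with a line joining the values of a gene and 1 point per pooled library. Hbegf, at 0.466 and 3.82 FPKM, and Areg, at 0.0316 and 0.107 FPKM, have the widest gaps, and Egfr is the widest gap towards a lower Alb-Cre level among the 10 genes.

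Differences are log2 ratios, Alb-Cre to control, taken after adding 1 FPKM to both values, so that ratios of weak genes come out too small. A gene counted as measured if either library reached 1 FPKM, and as higher or lower if its ratio reached 2-fold. Among 11406 measured genes, 3.75% were higher and 1.83% were lower by this rule. Of the 10 genes, 7 were measured, 1 of these was higher (Hbegf), 0 were lower and 6 lay between the limits. Hbegf passed the minimum only through the Alb-Cre library, where it was high. The median log2 ratio was 0.13 over the 10 genes and -0.06 over all measured genes. Of the 10 genes, 0 were called different in the authors' deposited table, against 0.673% of 14868 tested genes, and those calls compare 2 libraries and not the genotypes.

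**Figure D2:**
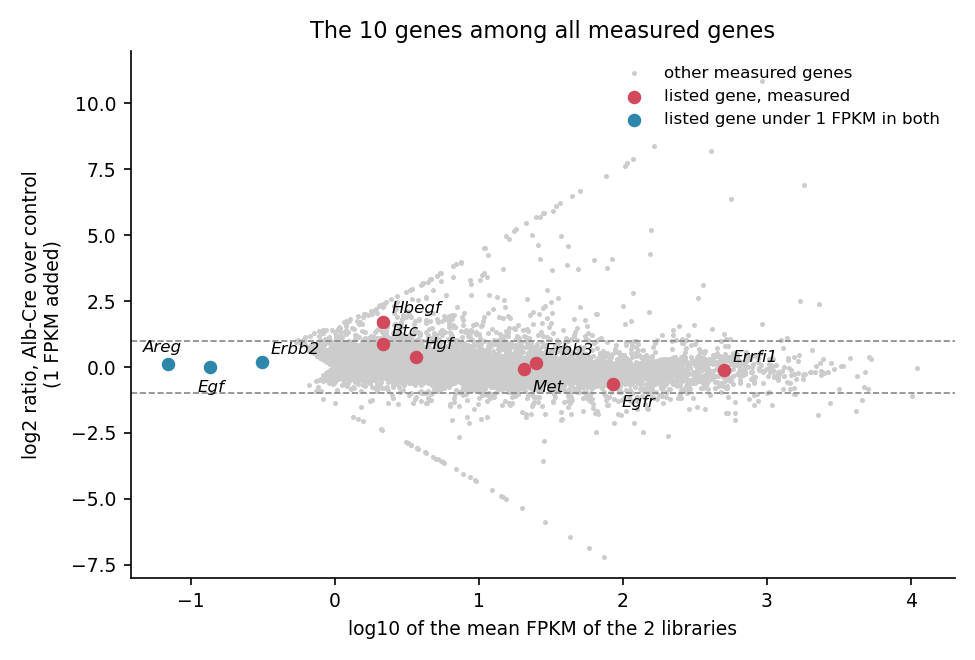
Log2 ratio of Alb-Cre over control (1 FPKM added) against the log10 of the mean FPKM for 11406 measured genes (grey), with 7 of the 10 genes in red and the 3 genes under 1 FPKM in both libraries in blue. Dashed lines mark 2-fold, and Hbegf at 1.72 is the single named gene beyond them.

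The sequence before the transcription start was read for the most abundant gene (Errfi1), the least abundant (Areg), the leading receptor (Egfr) and Hgf, because these span the range of levels and hold examples of the elements searched. Sequences are 250 bases upstream of a RefSeq start on GRCm38.p6, the assembly of mm10, 5′ to 3′ on the gene's strand. Egfr lies at chr11:16751953-16752202, Errfi1 at chr4:150854820-150855069, Areg at chr5:91139349-91139598 and Hgf at chr5:16553245-16553494, and all are on the plus strand. Errfi1 and Hgf each have another RefSeq start that is not shown. Capitals mark matches on either strand to the cAMP response element TGACGTCA, the TATA box TATAAA, the FoxO element GTAAACA, the AP-1 site TGACTCA and the GC box GGGCGG.
Egfr: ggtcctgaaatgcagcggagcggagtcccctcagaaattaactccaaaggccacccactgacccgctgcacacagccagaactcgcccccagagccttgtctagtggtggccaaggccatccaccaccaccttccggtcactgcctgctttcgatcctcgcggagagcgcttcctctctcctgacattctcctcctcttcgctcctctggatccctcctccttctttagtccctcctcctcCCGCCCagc
Errfi1: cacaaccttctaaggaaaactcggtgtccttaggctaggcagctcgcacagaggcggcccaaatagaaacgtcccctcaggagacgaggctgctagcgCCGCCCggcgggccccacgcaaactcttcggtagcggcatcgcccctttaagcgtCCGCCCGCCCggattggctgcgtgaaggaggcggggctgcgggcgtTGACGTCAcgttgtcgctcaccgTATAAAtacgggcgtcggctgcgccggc
Areg: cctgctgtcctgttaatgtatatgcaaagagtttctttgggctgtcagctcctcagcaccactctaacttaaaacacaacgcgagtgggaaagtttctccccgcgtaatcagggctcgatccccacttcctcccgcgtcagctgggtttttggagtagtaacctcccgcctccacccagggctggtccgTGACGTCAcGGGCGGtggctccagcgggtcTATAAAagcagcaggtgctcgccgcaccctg
Hgf: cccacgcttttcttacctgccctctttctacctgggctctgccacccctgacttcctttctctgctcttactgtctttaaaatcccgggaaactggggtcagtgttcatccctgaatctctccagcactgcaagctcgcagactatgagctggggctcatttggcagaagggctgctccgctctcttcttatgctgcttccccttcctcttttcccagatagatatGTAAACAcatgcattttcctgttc

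Errfi1 and Areg, at opposite ends of the range of levels, hold the same pair of elements in the same order. In Errfi1 the cAMP response element lies 51 to 44 bases before the start and the TATA box 28 to 23 bases before it. In Areg these elements lie 61 to 54 and 31 to 26 bases before the start. Of 32851 promoters of this length, 1.55% hold the cAMP response element and 12.4% the TATA box. The Errfi1 window also holds 3 matches to the GC box, 2 of which overlap each other. Egfr has a GC box 9 to 4 bases before its start, an element found in 32.7% of promoters, and no match to the TATA letters in this window. FoxO factors are held out of the nucleus by Akt, and their element stands 24 to 18 bases before this Hgf start and in 3.17% of promoters. It was also found 175 to 169 bases before 1 of the RefSeq starts of Egf. The AP-1 site, present in 4.46% of promoters, was found in the Met promoter beside 3 GC boxes. The search covered 11 promoters of 8 of the 10 genes, and Erbb2 and Btc held none of these elements. Erbb3 and Hbegf were not covered. For the 10 genes, promoters on chromosome 18, where Hbegf lies, were left out of the search. A match of letters is a description and not evidence that a factor binds there.

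Among the receptors, Egfr had a lower level with Alb-Cre and the others differed less on the log2 scale used here. Egfr (mm10 chromosome 11, 16752203 to 16913907) went from 105 FPKM in control livers to 66.2 FPKM in Alb-Cre livers (log2 ratio -0.66). That is less than a 2-fold difference, yet only 4.31% of measured genes had a lower ratio. Egfr overlaps an annotated antisense gene, Egfros, and the strandedness is not stated in the labels, so reads of the pair cannot be told apart. Hepatocyte markers leaned the same way, with a median log2 ratio of -0.24 over 15 measured markers, of which Tat was higher and 0 were lower. They summed to 18793 FPKM in control livers and 17374 FPKM in Alb-Cre livers, with Cyp2e1 listed at 0 in both under the status for loci with too many fragments, so that its level is not known. The part of hepatocyte content in the Egfr value was not tested. In such bulk libraries fewer cells of a type and less RNA per cell cannot be told apart.

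Erbb3, the partner that recruits PI3 kinase, is known in human cancer cells as a gene that FoxO factors raise when Akt is blocked. In these livers Erbb3 (chromosome 10, 128569368 to 128589501) stood at 23.6 and 26.3 FPKM (log2 ratio 0.15). Met (chromosome 6, 17463957 to 17573980) stood at 21.3 and 20.0 FPKM, with a ratio of -0.09 that turned to 0.05 when ratios were centred on the more abundant genes. The ratio of Met was above that of 46.3% of measured genes and that of Erbb3 above that of 74.2%. Erbb2 (chromosome 11, 98412484 to 98438988) stood at 0.231 and 0.389 FPKM (ratio 0.17), and its end overlaps the gene Mien1 on the opposite strand. Erbb4, the remaining receptor of the family, had 0.413 and 0.158 FPKM. The low levels of Erbb2 and Erbb4 left Egfr and Erbb3 as the EGF family receptors above 1 FPKM in these livers. Egfr exceeded Erbb3 by 4.47 times in the control library and by 2.51 times in the Alb-Cre library, and it exceeded Met by 4.95 and 3.31 times.

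Egfr had the highest level of 31 receptor tyrosine kinases listed for comparison, in both libraries. It held 37.4% of their summed FPKM in control livers and 23.9% in Alb-Cre livers. Erbb3 held rank 3 and Met rank 4 in the control library, behind the insulin receptor gene Insr at 24.9 FPKM. In the Alb-Cre library both moved down 1 place, because the fibroblast growth factor receptor gene Fgfr2 went from 12.3 to 28.7 FPKM. The 25 listed receptors outside the EGF family, Met and its relative Mst1r had 21 measured genes, of which 2 were higher, 0 lower and 18 had a ratio above 0. The other 3 of these 21 had a ratio below 0, as Egfr did, among them Fgfr3 (14.5 and 8.70 FPKM, log2 ratio -0.68) and Ntrk2 (2.72 and 1.13 FPKM, -0.80). Among all measured genes 3.75% were higher, 1.83% were lower and 41.2% had a ratio above 0. Pdgfra, Ddr2 and Ddr1 passed the minimum only through the Alb-Cre library, so their ratios could only be above 0.

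**Figure D3:**
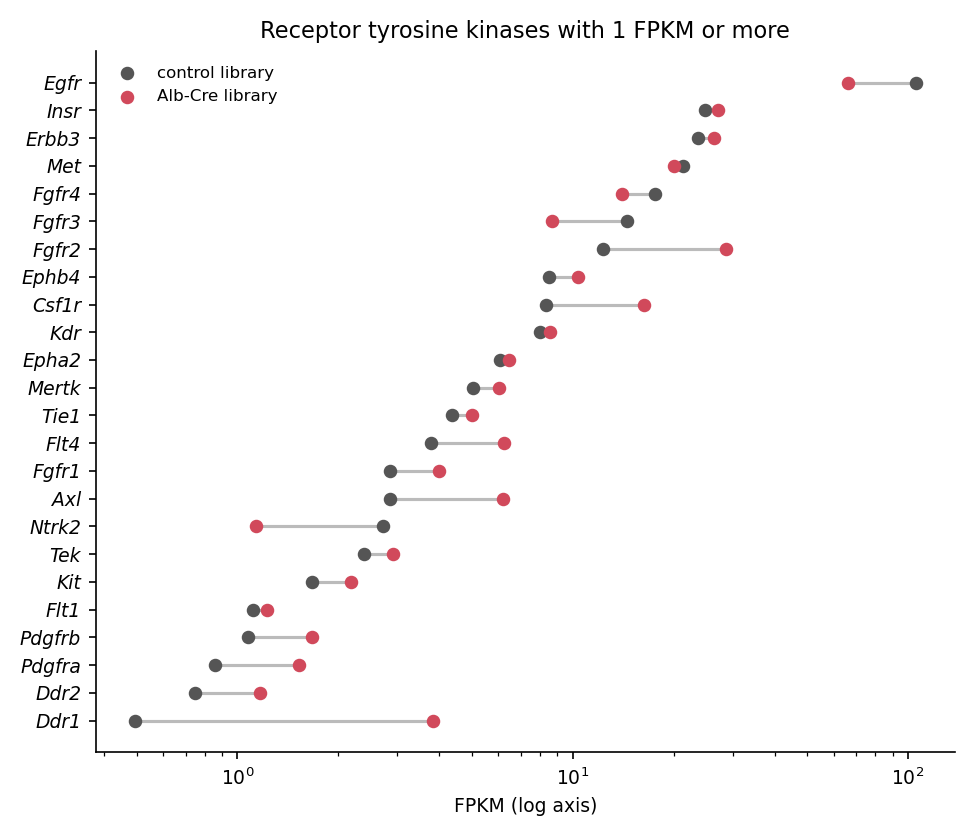
FPKM (log axis) of the 24 receptor tyrosine kinase genes with 1 FPKM or more in at least 1 library, ordered by their level in the control library (grey) and joined to the Alb-Cre library (red). Egfr is highest in both libraries at 105 and 66.2 FPKM, and Erbb3 and Met lie close together near 20 FPKM with little distance between libraries.

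Of the 7 genes for EGF receptor ligands 3 were measured, and 1 of these, Hbegf, was higher in Alb-Cre livers, while Btc and Tgfa lay within the limits. Hbegf encodes the heparin-binding ligand of Egfr and Erbb4 and is made by macrophages, endothelial cells and stressed epithelia. Hbegf (chromosome 18, 36504927 to 36515805) went from 0.466 FPKM in control livers to 3.82 FPKM in Alb-Cre livers. Its log2 ratio was 1.72, and without the added FPKM the difference was 8.21-fold. Its ratio was above that of 98.6% of measured genes. In the authors' deposited table its p-value was 0.0034 and its q-value 0.232. With 5 FPKM added in place of 1 the ratio was 0.69, below the 2-fold limit.

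Btc encodes betacellulin, a ligand of Egfr and Erbb4. Btc (chromosome 5, 91357261 to 91402994) stood at 1.23 and 3.07 FPKM (log2 ratio 0.87), a 2.49-fold difference without the added FPKM. It lay just inside the 2-fold limit, with a ratio above that of 95.1% of measured genes, and beyond the limit with 0.1 FPKM added (1.25) or with centred ratios (1.00). Areg encodes amphiregulin, a ligand of Egfr linked to tissue repair. Areg (chromosome 5, 91139615 to 91148432) stood at 0.0316 and 0.107 FPKM (log2 ratio 0.10). Egf itself (chromosome 3, 129677575 to 129763882), made mainly outside the liver, in salivary gland and kidney, stood at 0.131 and 0.139 FPKM (ratio 0.01).

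The weakest values rest on few fragments. From the lowest values of genes with 1 annotated transcript, 1 fragment in 1 kb was worth about 0.00826 FPKM for control and 0.00716 FPKM for Alb-Cre livers. On that estimate and the longest annotated transcript, Areg stood for about 4.64 fragments of control and 18.2 of Alb-Cre RNA. The exact 95% interval of its 3.40-fold difference was 1.12 to 10.8, a wide range from counting alone. For Hbegf, about 163 and 1543 fragments gave an interval of 6.98 to 9.70 around 8.21. For Erbb2, about 140 and 272 fragments gave 1.37 to 2.08 around 1.68, and for Egf, about 75.4 and 92.6 fragments gave 0.784 to 1.48 around 1.07. These intervals cover counting error only and compare these 2 libraries, not the genotypes.

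Tgfa, which encodes transforming growth factor alpha, had the highest level of the 7 genes for EGF receptor ligands, with 7.40 and 9.02 FPKM and a log2 ratio of 0.26. It supplied 79.2% of the summed ligand FPKM in control livers and 54.9% in Alb-Cre livers, while the share of Hbegf went from 4.99% to 23.2% and that of Btc from 13.2% to 18.6%. The sum over the 7 genes was 9.34 and 16.4 FPKM. Without Hbegf it was 8.88 and 12.6 FPKM. Epgn, Ereg, Areg and Btc stand in a row within 375 kb of chromosome 5, in a span that holds 5 rows of the table. Ereg had 0.0767 and 0.279 FPKM, so 3 of these 4 neighbours were between 2.49 and 3.63 times higher in the Alb-Cre library without the added FPKM. With 1 FPKM added their log2 ratios were 0.25 for Ereg, 0.10 for Areg and 0.87 for Btc, within the 2-fold limits. Ereg and Areg stayed below 1 FPKM in both libraries, and the share of all genes with such raw differences was not counted. Epgn had 0.0097 and 0.00878 FPKM and was not tested by the authors.

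**Figure D4:**
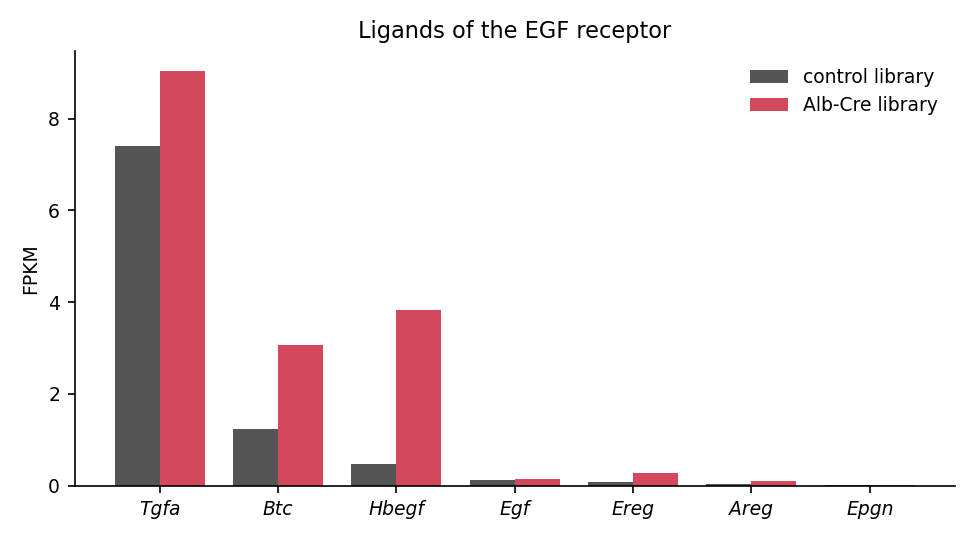
FPKM of the 7 genes for EGF receptor ligands in the control library (grey) and the Alb-Cre library (red), with 1 bar per pooled library and no error available. Tgfa is highest in both at 7.40 and 9.02 FPKM, and Hbegf goes from 0.466 to 3.82 FPKM.

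Macrophage markers were higher in Alb-Cre livers. The 15 measured Kupffer cell and macrophage markers had a median log2 ratio of 1.19. Of these, 9 were higher (led by Marco, Cd14, Lyz2 and Lgals3) and 0 lower, beside 3.75% and 1.83% of all measured genes. The 16 listed markers summed to 207 FPKM in control livers and 507 FPKM in Alb-Cre livers, and 0 of them were at 0 in both. Of 10 endothelial markers Lyve1 alone was higher and 0 were lower, though Stab2 had a ratio of -0.72, with a median of 0.30 and summed levels of 99.2 and 131 FPKM. Of 9 neutrophil and mast cell markers in the table, the 2 measured ones, S100a8 and S100a9, were both higher. That list summed to 4.37 and 20.3 FPKM, with the mast cell gene Mcpt4 at 0 in both libraries. Lymphocyte markers summed to 4.64 and 11.7 FPKM. All 5 measured ones passed the minimum only through the Alb-Cre library, and their median ratio was 0.78 with 1 FPKM added and 1.45 with 0.1 FPKM added, so that 0 of them past 2-fold depends on the added value. Cholangiocyte markers summed to 41.1 and 40.6 FPKM, with 0 of 3 measured ones past 2-fold and Cftr near 0. The part of these cells in the Hbegf and Btc values was not tested.

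Hgf (chromosome 5, 16553550 to 16619439) encodes the ligand of Met and is made by stellate cells in liver. It stood at 3.05 and 4.26 FPKM, and its log2 ratio of 0.38 was above that of 85.1% of measured genes but within the 2-fold limits. Stellate cell and fibroblast markers leaned the same way, with a median log2 ratio of 0.51 over 14 measured markers, 1 of them higher and 0 lower. That list summed to 148 and 256 FPKM, of which the matrix gene Dcn gave 91.5 and 155 FPKM. The vitamin A storage enzyme gene Lrat had 4.50 and 7.08 FPKM. The part of stellate cell content in the Hgf value was not tested.

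Genes that activate or oppose Hgf lay within the 2-fold limits. Hgf is secreted as an inactive precursor that the proteases encoded by Hgfac and Hpn cut. Hgfac had 154 and 119 FPKM (log2 ratio -0.37) and Hpn 361 and 319 FPKM (-0.18). The inhibitor gene Spint2 had 96.0 and 88.7 FPKM (-0.11). Of the 8 measured genes of the HGF axis and the related macrophage-stimulating protein (MSP) axis, 0 passed 2-fold in either direction, with a median of -0.12. That median had the opposite sign, 0.01, with centred ratios.

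Errfi1, also known as Mig6, binds the kinase of EGF receptors and blocks it, and its own transcription is raised by the signal it blocks. Errfi1 (chromosome 4, 150855091 to 150868880) stood at 528 and 487 FPKM (log2 ratio -0.12), with a level above that of 98.3% of measured genes in the control library and of 98.1% in the Alb-Cre library. With centred ratios its ratio was 0.02, so it had no stable direction. Errfi1 exceeded Egfr by 5.01 times in the control library and by 7.35 times in the Alb-Cre library. An annotated antisense gene overlaps it as well. Of 16 measured genes that inhibit or degrade EGF receptors, Errfi1 included, 0 passed 2-fold in either direction, with a median of 0.03. Lrig3 (2.94 and 1.69 FPKM, -0.55) and the cytokine signalling inhibitor gene Socs3 (7.05 and 10.7 FPKM, 0.53) marked the ends of the range.

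The measured genes that release the ligands and relay the signal lay within the 2-fold limits, as most measured genes did. Adam17, a main sheddase, had 6.48 and 6.44 FPKM. All 5 measured shedding genes lay between the limits, from -0.03 for Adam10 to 0.35 for Rhbdf1. Of 18 measured genes of the Ras and MAP kinase relay, 0 were higher and 0 lower, with ratios from -0.37 for Sos1 to 0.38 for Mapk3 and a median of -0.17. Of these 18 ratios 15 were below 0, where the median of all measured genes was also below 0. The neuregulin gene Nrg4, whose product binds Erbb4, had 11.7 and 14.7 FPKM (0.31).

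Genes induced through MAP kinase signalling went both ways. Of 16 measured genes in that list, 3 were higher and 1 was lower, beside 3.75% and 1.83% of all measured genes. The median of the list was 0.54. Ratios in the list were above 0 for 12 and below 0 for 4, while 41.2% of all measured genes had a ratio above 0. The median was 0.70 with 0.1 FPKM added, 0.23 with 5 FPKM added and 0.13 with a minimum of 5 FPKM. The early response gene Fos had 5.21 and 22.3 FPKM (log2 ratio 1.91), Ier3 had 1.54 and 7.54 FPKM (1.75), and the cyclin gene Ccnd1 had 11.8 and 32.2 FPKM (1.38). Phlda1 was lower, with 73.2 and 32.0 FPKM (-1.17). The measured feedback inhibitors of the pathway had ratios above 0 except for Dusp6 and Spry4. Dusp6, a phosphatase for ERK, had 36.7 and 34.0 FPKM (-0.11), and Spry4 had 5.74 and 4.73 FPKM (-0.24). The ratio was 0.82 for Dusp4, 0.54 for Spry1, 0.33 for Spred1 and 0.59 for Spred2. Spry2 (0.685 and 1.67 FPKM, 0.66) and Dusp5 (0.254 and 1.40 FPKM, 0.94) passed the minimum only through the Alb-Cre library. Many inputs besides EGF receptors and Met act on these genes.

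**Figure D5:**
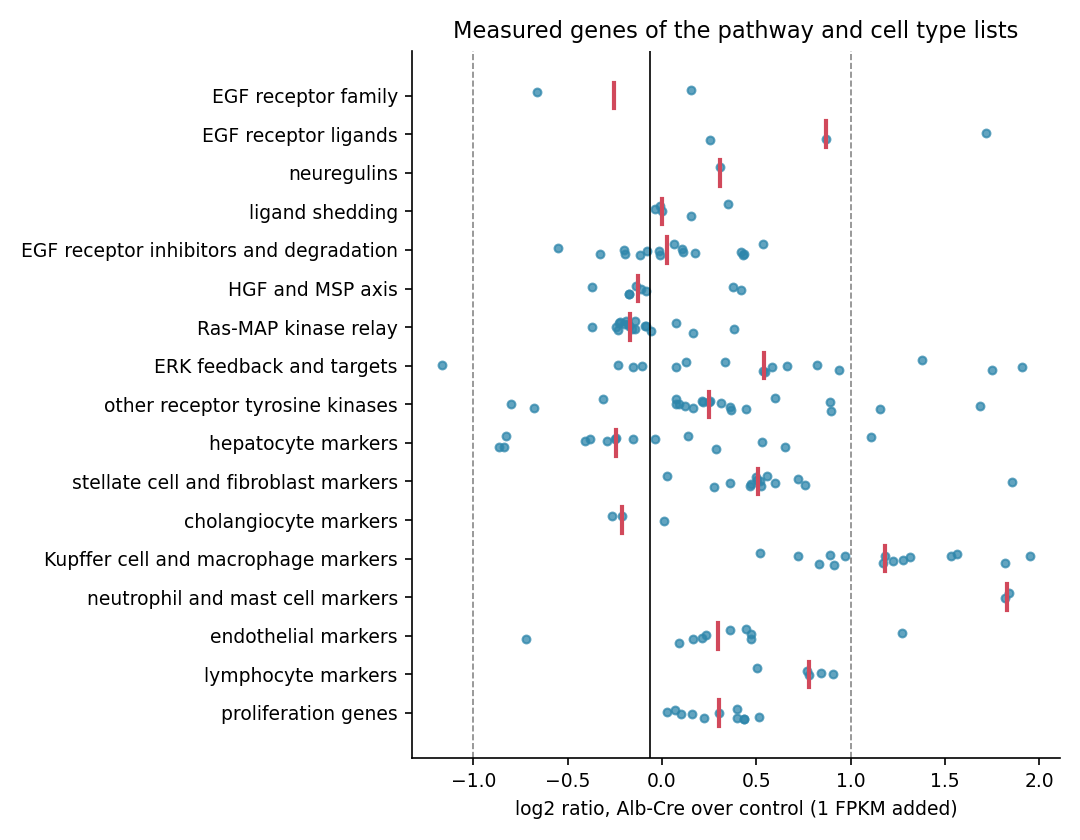
Log2 ratio of Alb-Cre over control (1 FPKM added) for every measured gene of each list (blue points), with the list's median in red, the median of all measured genes as a black line at -0.06 and 2-fold as dashed lines. The relay, shedding and inhibitor lists stay between the dashed lines, while Kupffer cell and macrophage markers centre on 1.19.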

How the data were processed

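RNA was sequenced from 2 pooled liver libraries, 1 per genotype. The submitters' processing notes name FastQC, TopHat2 2.0.8, Cuffdiff 2.1.1 and mm10 without role or order. The gene annotation, the strandedness and the read totals are not given in the sources used here. In their table the authors deposited FPKM values per gene and library, with a p-value and q-value per gene, per the file headers. How Cuffdiff scaled the libraries is not stated.

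From these values the log2 ratio was computed with 1 FPKM added, over genes of status OK reaching 1 FPKM in either library. No test was run. All 10 members are named, and of each other list the genes past 2-fold and those at the ends of its range. Others were chosen after their values were seen, and 1 gene past 2-fold is not reported here. The members and lists were chosen with earlier results of these data known. Depth was estimated from the lowest values of 3440 genes with 1 GENCODE vM21 transcript, giving a depth for Alb-Cre of about 1.15 times that of control if values were scaled by fragments alone. Exact 95% intervals cover counting error only. Promoters are from RefSeq (GRCm38.p6). Positions count from 1. The ratio and depth steps were checked on simulated data. Python 3.11.15, pandas 2.3.3, numpy 2.4.6, scipy 1.17.1 and matplotlib 3.10.9 were used.

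As a check of the labels, Akt1 had 23.7 FPKM in the control library and 17.1 FPKM in the Alb-Cre library, and Akt2 had 37.5 and 33.5 FPKM. These values cover whole genes, and the exons removed are not given in the sources used here, so they check the labels weakly.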

Additional observations from a re-analysis of the deposited data

How the results depend on the processing

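No paired analysis was possible because each genotype has 1 library, and for the same reason no library could be left out. Over pseudocounts of 0.1 and 5 FPKM, no minimum or one of 5 FPKM, equal library sums, centred ratios and rows of any status, 8 of the 10 genes kept the sign of their ratio, with Egfr between -0.67 and -0.53 and Hbegf between 0.69 and 2.79. Of these settings, only equal library sums and centred ratios could change the sign of a gene's ratio, so a kept sign says nothing about the others. Met and Errfi1 changed sign with centred ratios. Centring on the 4964 genes that reach 10 FPKM in each library adds 0.13 to every ratio. Of the 10 genes, 2 were past 2-fold higher with 0.1 FPKM added, 2 with centred ratios and 2 at a 1.5-fold limit, and 0 with 5 FPKM added, a minimum of 5 FPKM or a 4-fold limit; 1 (Egfr) was lower at a 1.5-fold limit. The median over the 7 measured ones, 0.15, was -0.10 with a minimum of 5 FPKM, which leaves 4 genes, 0.29 with centred ratios, and 0.32 as a mean. Of all measured genes, 428 were higher and 209 lower; the higher count was 769 with 0.1 FPKM added, 178 with 5 FPKM added, 283 with a minimum of 5 FPKM, 1012 at 1.5-fold and 117 at 4-fold, and the lower count 661 at 1.5-fold and 45 at 4-fold. List medians under these settings were tried after the data were seen. The spread between mice, hidden by pooling, is unknown.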

Other observations

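Proliferation genes, which act downstream of growth factor receptors among other inputs, lay within the 2-fold limits where measured. Of 17 listed genes 11 were measured, with 0 higher, 0 lower and a median log2 ratio of 0.30. Mki67 had 0.177 and 0.562 FPKM in the control and Alb-Cre libraries, Top2a had 0.225 and 0.729 FPKM, and the replication clamp gene Pcna had 34.9 and 35.6 FPKM. All 11 measured ones had a ratio above 0, as did 41.2% of all measured genes. Of the 11, 2 (Ccnb2 and Cdk1) passed the minimum only through the Alb-Cre library, so their ratios could only be above 0. Without the minimum of 1 FPKM, 16 of the 17 genes had a ratio above 0, and no such share of all genes was counted. The median was 0.11 with 5 FPKM added and 0.05 with a minimum of 5 FPKM. It was 0.51 with 0.1 FPKM added, 0.40 with no minimum and 0.44 with centred ratios.

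Among receptor tyrosine kinases outside the EGF family, the collagen receptor gene Ddr1 had 0.494 and 3.82 FPKM (log2 ratio 1.69) and passed the minimum only through the Alb-Cre library. Its values are close to those of Hbegf in both libraries, a likeness seen afterwards that 2 libraries cannot test. The receptor gene Axl had 2.85 and 6.18 FPKM (0.90).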
